A study of Drosophila melanogaster with 3 samples.

Results

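The 10 genes described here carry the Hippo growth control pathway of the fruit fly *Drosophila melanogaster*: *hpo*, *wts*, *yki*, *sd*, *ex*, *Mer*, *kibra*, *ft*, *ds* and *Diap1*. They were taken by name as genes of the pathway, though with earlier results of these data known. All 10 were found in the Ensembl BDGP6 annotation, among 13945 protein-coding genes. The measurement was chromatin immunoprecipitation with sequencing (ChIP-seq) of Atf3, a basic leucine zipper transcription factor. It was made in whole embryos, aged 0 to 24 hours and of both sexes, from flies of the strain A3-3-GFP, which stably express Atf3 with green fluorescent protein (GFP) fused to its C terminus. An antibody to GFP was used, and 3 biological replicates form the 1 group, so no condition is compared with another. Whole embryos mix all tissues and ages of that day, so a call cannot be placed in any cell type. Read totals are not part of such lists, and sequencing depth is therefore unknown.

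Hippo signalling limits organ size through a chain of kinases. The kinase encoded by *hpo* activates that encoded by *wts*, which phosphorylates the coactivator Yorkie (*yki*) and keeps it out of the nucleus. Unphosphorylated Yorkie joins the DNA-binding protein Scalloped (*sd*) and raises growth and survival genes such as *Diap1*. The membrane proteins Fat (*ft*) and Dachsous (*ds*) and the cortical proteins Expanded (*ex*), Merlin (*Mer*) and Kibra act upstream.

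Of the 10 genes, 7 had an IDR call of Atf3 in the gene or within 2 kb on either side: *ds*, *ex*, *yki*, *Diap1*, *Mer*, *hpo* and *kibra*. IDR calls are those of the list that the authors thresholded by irreproducible discovery rate (IDR), which scores how repeatably a call ranks. That list equals the 2896 calls of highest signal in the pooled list, so membership followed the pooled signal. Of all IDR calls, 53.0% matched calls among the 2896 of highest signal in every replicate. An IDR call in the window was present at 25.8% of all protein-coding genes. A promoter call, with its summit within 500 bp of a transcription start site (TSS) of the gene, was present at 4 of the 10, *hpo*, *yki*, *Mer* and *kibra*, against 14.2% of protein-coding genes. Calls outside the promoter were present at 5 of the 10, against 15.3%, and intronic calls at 3, *ex*, *kibra* and *Diap1*, against 4.83%. The genes *wts*, *sd* and *ft* had no IDR call, although each had weaker calls in the pooled list.

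These counts are also given by gene length, since the genes differ widely in it. The median window was 21.2 kb for the Hippo genes and 6.17 kb for all protein-coding genes, and 7 of the 10 lay in the quartile with the longest windows. From the shortest to the longest quartile of windows, the share of genes with an IDR call was 13.8%, 21.7%, 27.9% and 39.8%. For promoter calls it was 6.70%, 12.3%, 18.4% and 19.2%. Within the longest quartile 4 of the 7 Hippo genes had an IDR call, against 39.8% of its genes. Calls outside the promoter were also at 4, against 28.3%, and intronic calls at 3, against 18.0%. Only *kibra*, 1 of the 7, had a promoter call, against 19.2%. The other 3, *hpo*, *yki* and *Mer*, the shortest of the 10, fell in the next quartile. Their windows of 6.51 to 7.80 kb were above the 6.17 kb median of protein-coding genes. All 3 had a promoter call, against 18.4% of that quartile. With windows of the 10 genes summed, there were 0.532 IDR calls per 10 kb, beside 0.256 over all protein-coding windows merged. No test was made of these differences, and with 10 genes 1 gene more or less moves each share.

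In all, 13 of the 2896 IDR calls and 90 of the 27754 pooled calls fell in the windows. The 30000 calls of each replicate list gave 100, 80 and 69 in replicates 1, 2 and 3. By their labels, the pooled and replicate lists also hold background. A pooled call lay in the window of every Hippo gene, and in that of 81.8% of protein-coding genes, while 7 of the 10 had a pooled call at the promoter, against 46.8%. These shares are over all genes and are not split by gene length or number of TSSs. Among the 7 are *sd* and *Diap1*, with 7 and 5 annotated TSSs. The plot of calls per gene gives the count in each list.

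**Figure D1:**
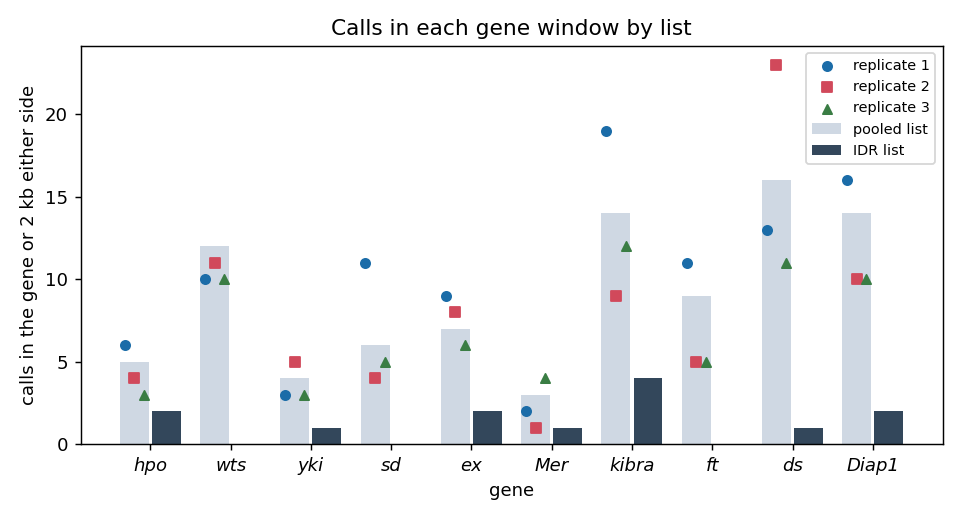
Calls with a summit in each gene or 2 kb either side (y axis, number of calls), by gene. Light bars are the pooled list, dark bars the IDR list, and points the 3 replicate lists; *kibra* had the most IDR calls, 4, and *wts*, *sd* and *ft* had 0.

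By position the 13 IDR calls were spread: 4 lay at promoters, 4 in introns, 2 upstream beyond 500 bp and 3 downstream of the gene. The promoter share was 30.8% (95% Wilson interval 12.7% to 57.6%, for counting error only). None of the 13 had its summit in coding sequence outside a promoter, and 18 of the 90 pooled calls did. The 95% Wilson interval for 0 of 13 reaches 22.8%, which includes the pooled share, so these counts do not show a difference. Shares of each position over all IDR calls are not given here, so whether this spread is typical of that list was not tested. Of the 13 summits, 3 lay within 500 bp of a TSS of a neighbouring gene (*Rep* beside *hpo*, *Gpat4* beside *yki* and *Meltrin* beside *kibra*), so they cannot be assigned to the Hippo gene alone. All 13 were matched by a call in each replicate, as were 2747 of the 2896 IDR calls in all. A match covers 50% or more of the shorter interval and can be a weak call of the 30000. For 7 of the 13 the match was among the 2896 calls of highest signal, called top calls here, in all 3 replicates, close to the 53.0% of all IDR calls.

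**Figure D2:**
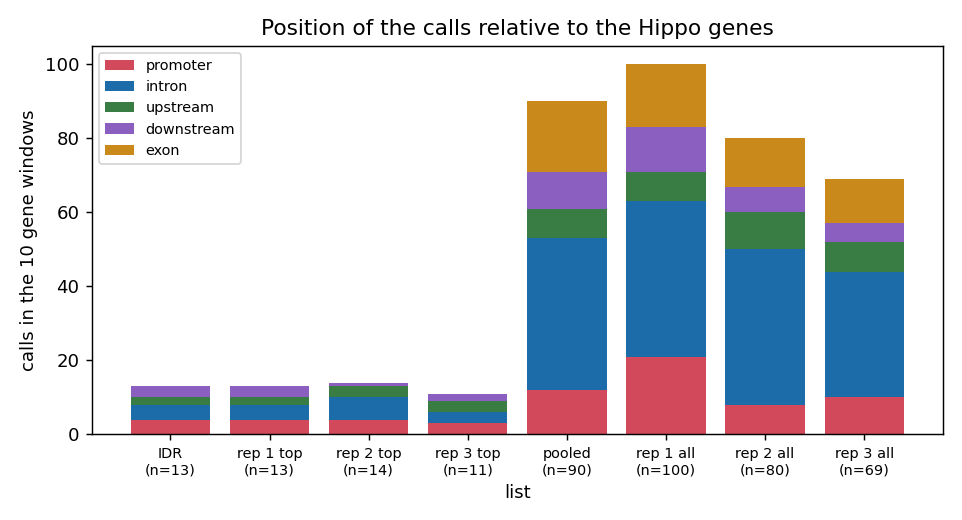
Number of calls in the 10 gene windows (y axis) by position relative to the gene, for each list (x axis, with the total). Top calls are the 2896 of highest signal in a replicate. Exonic calls are counted only outside the promoter windows, and appear in the pooled and full replicate lists but not in the IDR or top lists.

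Fat and Dachsous are giant cadherins that bind each other across cell borders, with Dachsous as ligand and Fat as receptor. The ligand gene *ds* held the call of highest signal among the 10 genes. It lay 587 bp upstream of the single TSS of *ds* (FBgn0284247, chr2L:640013-714983, minus strand), at chr2L:715515-715643 in dm6, an interval of 129 bp, and the *ds* TSS was the nearest of any gene. Its signal, the authors' own value for each call, was 279.7 in the pooled list, where it ranked 304. In replicates 1, 2 and 3 it had signals of 104, 84.3 and 86.1 and ranked 371, 295 and 293, a mean of 319.7 ± 44.5 (SD, n = 3). The replicates placed their summits within 33 bp of each other. The gene body, the longest of the 10, held only calls outside the IDR list, of which the strongest was intronic (signal 58.2, rank 4668). This gave *ds* 0.127 IDR calls per 10 kb, the lowest density of the 7 genes with a call.

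The sequence at the *ds* summit, and those at *ex*, *Diap1* and *kibra* further on, are shown because *ds*, *ex* and *Diap1* had strong calls outside promoters and the *kibra* promoter call holds repeated motifs. None of the 4 windows overlaps an exon. Each spans 100 bp on either side of the summit in the release 6 genome (dm6), on the strand of the gene. Capitals mark motif matches. The searched motifs, on both strands, were CRE/ATF (TGACGTCA, the site of ATF/CREB proteins), its core TGACGT within it, AP-1 (TGANTCA), DRE (TATCGATA, the site of the promoter factor DREF), the Scalloped core GGAATG, the GAGA factor motif GAGAGAG and the TATA box TATAAA. The *ds* window, chr2L:715470-715670, minus strand, matched none of the 7 motifs.
ds upstream: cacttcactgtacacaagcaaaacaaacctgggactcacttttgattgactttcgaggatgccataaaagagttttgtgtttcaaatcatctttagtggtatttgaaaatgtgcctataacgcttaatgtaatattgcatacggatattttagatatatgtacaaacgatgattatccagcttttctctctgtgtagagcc

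The receptor gene *ft* (FBgn0001075, chr2L:4198404-4221796, minus strand) had no IDR call and no promoter call in the pooled list. Its strongest pooled call was intronic, 2746 bp from the TSS, at chr2L:4218850-4219249 with a signal of 64.3 and rank 4008. Replicates 2 and 3 ranked it 3359 and 3222, while replicate 1 ranked it 21758. The strongest call of replicate 1 in the *ft* window lay elsewhere, downstream of the gene, at rank 4161. *ds* and *ft* thus stood at the first and the last place of the 10 by the pooled signal of their strongest call. By the best rank in the window, *ds* was first in each replicate, but *ft* was last only in replicate 2. Last were *wts* in replicate 1 (5988) and *sd* in replicate 3 (4602).

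Expanded, Merlin and Kibra act together at the cell cortex to turn on the kinase chain, and *ex* is also a well known Yorkie target. The *ex* gene (FBgn0004583, chr2L:431227-448701, plus strand) held an intronic call 10882 bp inside the gene, at chr2L:441909-442308. Its signal was 223 in the pooled list (rank 453), and 85.4, 64.1 and 67.8 in replicates 1, 2 and 3. The ranks there were 585, 501 and 482, a mean of 523 ± 54.8 (SD, n = 3). No overlap was found between this range and that of the *ds* call, which ranked higher in each replicate. The nearest TSS, 2570 bp away, belonged to the non-coding gene *lncRNA:CR43717*. A weaker IDR call lay exactly 1000 bp upstream of the *ex* TSS, with a signal of 90.8, the lowest of the 13. It ranked 2024, 3289 and 2359, with replicate summits up to 162 bp apart. The intronic window, chr2L:442009-442209, matched none of the 7 motifs.
ex intron: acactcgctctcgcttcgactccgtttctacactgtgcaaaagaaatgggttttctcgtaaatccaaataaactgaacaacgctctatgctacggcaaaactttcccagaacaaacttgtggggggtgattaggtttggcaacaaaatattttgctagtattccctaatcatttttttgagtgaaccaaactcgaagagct

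*Mer* (FBgn0086384, chrX:19689697-19693500, minus strand) held 1 IDR call, 103 bp inside the transcript at chrX:19693197-19693596. The signal was 151 in the pooled list (rank 984), and 66.2, 33.8 and 47.1 in replicates 1, 2 and 3, where the call ranked 1008, 1588 and 968 (mean 1188 ± 347, SD, n = 3). All 3 replicate summits fell within 12 bp. Replicate 2 had no other call in the *Mer* window.

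With 4 IDR calls *kibra* (FBgn0262127, chr3R:14697689-14724261, minus strand) had the most of the 10 genes, with pooled signals of 91.3 to 100.3. A count of 4 or more was found in 0.581% of protein-coding genes and in 2.24% of the longest quartile. The cutoff of 4 was set by these data, as the highest count of the 10 genes. None of the 4 calls at *kibra* was among the top calls of all 3 replicates. The most IDR calls in 1 window were 14 at *kirre*, 12 at *CG1677*, 11 at *Hr4*, 10 at *CHES-1-like* and 9 at *Raf*, in windows of 31.0 to 398 kb. The *kibra* promoter call lay 104 bp upstream of the TSS at chr3R:14724165-14724564, with a pooled signal of 100.3 (rank 2045). It ranked 1340, 2512 and 3874 in replicates 1, 2 and 3, and the summit of replicate 3 lay 189 bp from the pooled one. The 2 intronic calls, 2101 and 17248 bp from the TSS, had pooled signals of 99.4 and 91.3. The nearer one ranked 2126, 1413 and 7484 and the farther one 3264, 2311 and 4586. The last call, 433 bp beyond the 3′ end and 36 bp from the TSS of *Meltrin*, ranked 729 in replicate 1 but 29034 and 18594 in replicates 2 and 3. The promoter window, chr3R:14724265-14724465, held 2 copies of the DRE, starting 16 and 58 bp to the TSS side of the summit. The DRE was in 4.39% of all IDR windows.
kibra promoter: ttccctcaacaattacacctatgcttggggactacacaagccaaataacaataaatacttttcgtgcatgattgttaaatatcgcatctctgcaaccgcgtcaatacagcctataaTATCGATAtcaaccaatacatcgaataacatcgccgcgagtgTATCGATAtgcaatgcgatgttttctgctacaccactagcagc

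**Figure D3:**
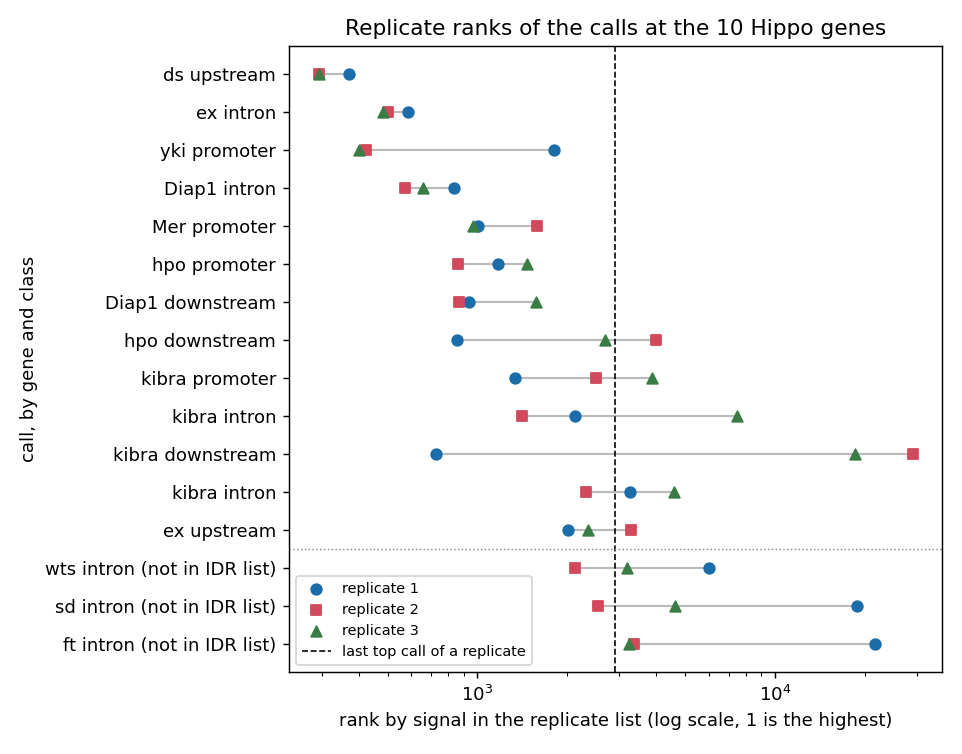
Rank by signal (x axis, log scale) of each of the 13 IDR calls in the 3 replicate lists, in order of pooled signal, with the strongest pooled call of *wts*, *sd* and *ft* below the dotted line. Points are replicates, grey bars their range, and the dashed line is rank 2896; the *ds* and *ex* intron calls span narrow ranges, and the *kibra* downstream call spans 729 to 29034.

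Of the kinase genes, *hpo* had calls in the IDR list and *wts* had none. At *hpo* (FBgn0261456, chr2R:19493996-19496856, minus strand) the promoter call lay 51 bp upstream of the TSS at chr2R:19496707-19497106. Its pooled signal was 148 (rank 1026), and the replicates gave signals of 62.0, 48.2 and 37.6 and ranks of 1173, 861 and 1467 (mean 1167 ± 303, SD, n = 3). A DRE match began 85 bp from the summit. The other *hpo* call was 1977 bp beyond the 3′ end, just inside the window, and 68 bp from the TSS of *Rep*. It had a pooled signal of 122 and ranked 854, 3989 and 2679. This was the only one of the 13 windows with the CRE/ATF palindrome TGACGTCA, which began 91 bp from the summit, against 1.52% of all IDR windows. The call dropped out when replicate 1 or 3 was left out and a match to top calls of both other replicates was required. Its rank of 3989 in replicate 2 was outside the top calls.

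*wts* (FBgn0011739, chr3R:30789625-30806619, minus strand) had 12 pooled calls and, of the 3 genes without an IDR call, came closest to that list. Its strongest call was intronic, 9702 bp from the TSS, at chr3R:30796717-30797116, with a signal of 77.0 (rank 3067). The lowest signal in the IDR list was 79.8. In replicates 1, 2 and 3 the call ranked 5988, 2134 and 3187. An upstream call of signal 76.1 lay 95 bp from the TSS of the neighbour *cindr* and ranked 2874, 3100 and 20711. At the *wts* promoter itself the call had a signal of 51.6 and ranked 8423, 13049 and 12457.

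Yorkie and Scalloped form the transcription factor pair at the end of the pathway. At *yki* (FBgn0034970, chr2R:24065975-24068485, minus strand) the IDR call at chr2R:24068673-24069072 lay 388 bp upstream of the *yki* TSS and 116 bp from that of *Gpat4*. Its signal was 198 in the pooled list (rank 594), and 48.8, 71.2 and 73.6 in replicates 1, 2 and 3. It ranked 1815, 423 and 402 there (mean 880.0 ± 809.8, SD, n = 3), lower in replicate 1 than in the others. A second pooled call nearer to *Gpat4*, outside the IDR list, had a signal of 75.3 and matched top calls in all 3 replicates, at ranks 1815, 2836 and 2023. The match in replicate 1 is the same call for both.

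*sd* (FBgn0003345, chrX:15804370-15827682, plus strand) has 7 annotated TSSs and had no IDR call. Its strongest pooled call was intronic, 670 bp from a TSS, with a signal of 69.9 (rank 3530). Replicates 1, 2 and 3 ranked it 18847, 2548 and 4602. Calls at the *sd* promoters numbered 7 in replicate 1, 0 in replicate 2 and 2 in replicate 3, and the best of them ranked 4481 in replicate 1 and 18834 in replicate 3. Over all calls of a replicate, 30.9%, 22.1% and 21.1% lay within 500 bp of a TSS in replicates 1, 2 and 3. Replicate 1 had the highest of these shares and the most calls at the *sd* promoters. Any link between them was not tested.

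*Diap1* encodes an inhibitor of caspases, the proteases of programmed cell death, and is a classic target of Yorkie and Scalloped. The gene (FBgn0260635, chr3L:16038410-16051034, minus strand) has 5 annotated TSSs, and none of them had an IDR call within 500 bp. Its stronger IDR call was intronic, 652 bp from the nearest *Diap1* TSS, at chr3L:16045994-16046393. The signal was 191 in the pooled list (rank 640), and 72.4, 59.6 and 58.1 in replicates 1, 2 and 3. It ranked 835, 570 and 656 there (mean 687 ± 135, SD, n = 3). The other lay 1221 bp beyond the 3′ end at chr3L:16036989-16037388, 1511 bp from the TSS of *CG5895*, with a pooled signal of 147. It ranked 935, 870 and 1571, with all summits within 7 bp. The 4 pooled promoter calls of *Diap1* were weak, with signals of 32.6 to 49.6.

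No motif of the 7 was found in the *Diap1* intronic window, chr3L:16046094-16046294, and its GC content was 31.3%.
Diap1 intron: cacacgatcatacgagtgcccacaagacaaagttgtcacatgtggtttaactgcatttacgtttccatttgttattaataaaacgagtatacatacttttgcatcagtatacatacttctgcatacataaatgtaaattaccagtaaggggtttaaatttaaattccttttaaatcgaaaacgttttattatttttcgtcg

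**Figure D4:**
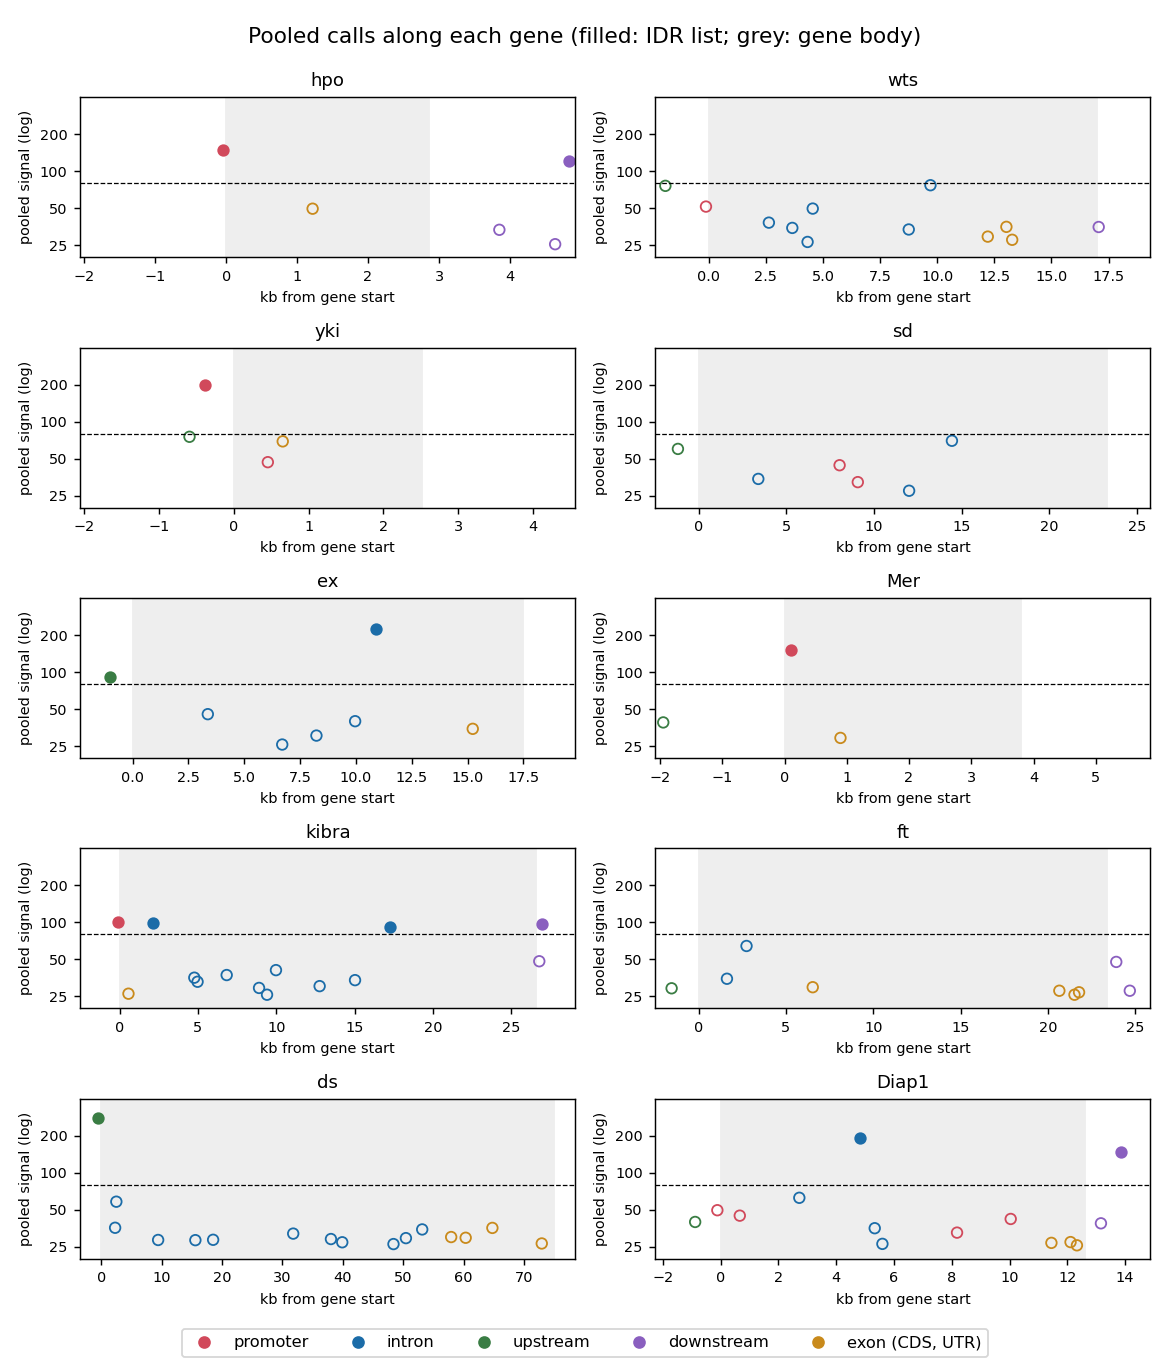
Pooled calls along each gene, 5′ to 3′: distance of the summit from the gene start in kb (x axis) and pooled signal on a log scale (y axis). Grey marks the gene body, filled points are IDR calls, and the dashed line is the lowest IDR signal, 79.8; the strongest calls of *ds*, *ex* and *Diap1* lie outside the 500 bp promoter windows.

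By the pooled signal of the strongest call the order was *ds*, *ex*, *yki*, *Diap1*, *Mer*, *hpo*, *kibra*, *wts*, *sd* and *ft*. The ranges of replicate ranks did not overlap between *ds* and *ex* or between *Diap1* and *Mer*. Every other pair of neighbours in this order had overlapping ranges. Among these pairs, *hpo* ranked above *kibra* and *wts* above *sd* in each replicate. For the remaining pairs the order differed between replicates. The strongest call was in the same position class in all 3 replicate lists for *wts*, *yki*, *ex*, *Mer*, *ds* and *Diap1*. Over the 13 IDR calls the highest replicate rank was a median 1.81 times the lowest, against 2.35 over the 2747 IDR calls matched in all 3 replicates. Their median pooled signal was 147, against 122 for all IDR calls, and their replicate summits spread over a median 42.0 bp, against 53.0 bp.

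Taken per replicate, the top calls put a promoter call at 4, 4 and 3 of the 10 genes in replicates 1, 2 and 3 (mean 3.67 ± 0.577, SD, n = 3). The corresponding shares of all protein-coding genes were 13.2%, 14.9% and 12.8%. The genes were *hpo*, *yki* and *Mer* in each replicate, with *kibra* added in replicates 1 and 2. The windows held 13, 14 and 11 top calls. Replicate 2 had 6 of them in introns, among them calls at *wts* and *sd*, whose introns had no top call in replicates 1 and 3.

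Motif matches were few in the 13 IDR windows. Beside the CRE/ATF match near *hpo* and the DRE at *hpo* and *kibra*, the TATA box letters were in 4 windows, against 29.6% of all IDR windows. Neither AP-1 (5.46% of all IDR windows), the Scalloped core (7.08%) nor the GAGA motif (4.66%) was matched in any of the 13. At these shares 13 windows are too few to tell 0 matches from the background. Within 200 bp of the summit, the Scalloped core was in 2 windows and the GAGA motif in 1. GC content ran from 29.4% to 52.7%, with a median of 40.3%, against 36.8% over all IDR windows.

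A wider set of 37 protein-coding pathway genes was examined in the same way, and 9 (24.3%) had an IDR call at the promoter and 17 (45.9%) in the window, against 14.2% and 25.8% of all protein-coding genes. Of the 37, 26 were in the quartile of longest windows, where 15 had a call in the window and 7 at the promoter, against 39.8% and 19.2%. When an IDR call had to match top calls of both other replicates, leaving out replicate 1, 2 or 3, the promoter count was 4 in each case, against 10.2%, 8.94% and 9.26%.

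By group these counts are small and are set against 14.2% of all protein-coding genes, and 19.2% of the longest quartile. Upstream regulators had a promoter call in 4 of 10 cases, and all 4 genes lay in the longest quartile. These were *app* (signal 148), a palmitoyltransferase acting with Fat, *dco* (120.4), a casein kinase that phosphorylates Fat, *Pez* (98.1), a phosphatase that binds Kibra, and *crb* (96.0), an apical membrane protein that binds Expanded. The *app* call ranked 811, 1000 and 1585 in replicates 1, 2 and 3, whereas that at *Pez* was nearest to the TSS of *Cpr* and had no match in replicate 3. The *dco* call ranked 2935, 2372 and 712, and the *crb* call 1216, 2495 and 15820. Inhibitors of the kinase chain had one in 3 of 8 cases: *Rassf* (119), *mts* (114), a catalytic subunit of protein phosphatase 2A, and *Strip* (86.8), a scaffold of the same phosphatase complex. The *mts* call was 9 bp from the TSS of *Rack1*, and the *Strip* call was nearest to *Gtpx*. Ranks in replicates 1, 2 and 3 were 3105, 1478 and 1349 at *Rassf* and 998, 5380 and 1914 at *mts*. At *Strip* they were 2213, 1883 and 7969. Among partners of Yorkie and Scalloped 2 of 6 had one, *mask* (173), which ranked 636, 912 and 1777, and *Wbp2* (89.2), with no match in replicate 2.

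None of the 5 other genes of the kinase chain (*sav*, *mats*, *Tao*, *msn* and *hppy*) and none of the 8 protein-coding targets had a promoter call in the IDR list, where the share over all genes was 14.2%. In the window, *msn* had 5 IDR calls, the strongest intronic with a signal of 180.3 (rank 716), and the other 4 kinase chain genes had none. Of the 8 targets, 4 had an IDR call in the window: *dlp*, *E2f1*, *Myc* and *dally*. All 4 lay in the longest quartile, where 39.8% of genes had one, and the strongest call of each was intronic. These targets and *msn* were named after their values were seen. Chosen after its values were seen, the microRNA gene *mir-ban*, which encodes the Yorkie target bantam, had an IDR call of signal 253 (rank 367) upstream of its hairpin. That call lay 1018 bp from the TSS of *lncRNA:CR43334*.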

How the data were processed

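Peak lists of Atf3 ChIP-seq from 3 biological replicates of Drosophila melanogaster embryos were used, in the dm6 assembly. Chromatin was sheared to 200 to 800 bp, per the labels. The signal value of each call was deposited by the authors, who made it from the alignments and a control, per the file descriptions. A replicate list came from that replicate's alignment, the pooled list from all 3, and the IDR list from these 4, per the file descriptions. Not given in the sources used here were aligner, caller and IDR cutoff. Lists in dm3 were not used, and the signal was used only to describe and rank calls within a list.

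Genes came from Ensembl release 115 (BDGP6, which is dm6) without pseudogenes and transposable elements, 17896 in all, and sequence from NCBI RefSeq's release 6 genome. Each summit was classed in the order promoter (500 bp of a TSS of the gene), exon, intron, upstream, downstream. A replicate call matched when it overlapped 50% of the shorter interval, the highest signal being taken; 11 pairs of neighbouring pooled summits lay under 300 bp apart, so 1 replicate call could match both. Rank 1 is the highest signal. No test was made, since there is 1 group. All 10 members were named, and of the 38 pathway genes up to 4 per group with the strongest IDR promoter call. Kinase chain genes and targets without one were named outside this rule. The members, lists and motifs were chosen with earlier results of these data known. Alternatives covered the windows, overlap, call sets and each replicate left out. Counting and matching were tested on simulated data. The tools were matplotlib 3.10.9, scipy 1.17.1, pandas 2.3.3 and numpy 2.4.6, run in Python 3.11.15.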

Additional observations from a re-analysis of the deposited data

How the results depend on the processing

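The number of Hippo genes with an IDR call at the promoter was 4, and 7 with a promoter window of 1000 bp, which adds *ex*, *ds* and *Diap1*, against 16.3% of protein-coding genes. It was also 7 with all pooled calls. Leaving out each replicate in turn, with a match to top calls of both others required, gave 3 to 4, against 8.94% to 10.2%. The *kibra* promoter call was lost without replicate 1 or 2, as it ranked 3874 in replicate 3. Genes with an IDR call in the window were 4 without the flanks (against 8.48%) and 6 to 7 with a replicate left out (against 17.8% to 19.1%). The gene lost there was *kibra*, without replicate 1 or 2. The 13 IDR calls in the windows became 5 without the flanks, 7 in the stronger 50% of the IDR list, and 7 to 9 with a replicate left out, with 7 left without replicate 1. The density of 0.532 per 10 kb was 0.244 without the flanks, beside 0.182 for all protein-coding genes. It was 0.286 to 0.368 with a replicate left out, beside 0.157 to 0.169. The pooled calls numbered 54 in the stronger 50% of the pooled list. With 50% as many top calls, the mean number of genes with a top promoter call was 2.33. Windows with any motif numbered 6, but 3 within 50 bp of the summit, 9 within 200 bp and 2 to 4 with a replicate left out, the sets without replicates 1 and 3 giving 2 and 3. Pathway genes outside the 10 with a promoter call were 9, and 4 to 4 with a replicate left out. These sets were smaller, at 1773 to 1910 IDR calls. The mean rank of the *kibra* promoter call was 2575, and 4415 when a match had to cover 80% of the shorter interval, with 1926 to 3193 when a replicate was left out. Leaving out replicates for the density, classes, ranks, top calls and motifs was chosen after seeing the data. No paired analysis was possible because there is 1 group. The unknown depth limits what the absence of a call at *wts*, *sd* and *ft* can show.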
